A study of Mus musculus with 2 samples.

Results

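The expression of 8 genes of cholesterol synthesis and its control, Hmgcs1, Sqle, Idi1, Lss, Insig1, Fdft1, Msmo1 and Srebf2, was followed across the cells of 2 mouse epidermal cultures, in 1 of which Bap1 was to be deleted. Bap1 encodes a deubiquitinase that acts on histone H2A in the nucleus. The genes were found by NCBI gene identifier and are 8 of the 36528 rows of each count table. Cells came from C57BL/6 neonates at postnatal day 1, pooled by genotype before culture, so that single animals cannot be told apart. The library labelled wild type came from 11 neonates carrying CreERT2, a recombinase that tamoxifen activates, at the Rosa26 locus (Rosa26-CreERT2). The library labelled knockout came from 9 neonates that also carried floxed Bap1 (Bap1fl/fl Rosa26-CreERT2). Both cultures, controls included, received 100 nM of 4-hydroxytamoxifen (4-OHT) for 4 days, followed by 3 days without it, in M254 medium with a human melanocyte growth supplement. About 6000 viable cells per genotype entered a droplet assay that counts unique molecular identifiers (UMIs) at the 3′ end of transcripts. The libraries are named here by their labels, Bap1_WT and Bap1_KO. With 1 library per genotype no test of a genotype difference was possible, and every 95% interval given covers counting error only.

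Cholesterol is built from acetyl units through mevalonate, isoprenoids and squalene, which is closed into lanosterol and then trimmed to cholesterol. Most enzymes of this route are transcribed under SREBP2, a membrane-bound factor that is cut free and enters the nucleus when sterols in the endoplasmic reticulum are low, while INSIG proteins hold it back when sterols are plentiful. In the epidermis cholesterol is, beside ceramides and fatty acids, a main lipid of the water barrier.

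The 250 bases before the annotated start are shown for 4 of the genes, because SREBP2 acts at such promoters together with the factors NF-Y and Sp1. The sequences are RefSeq's, build GRCm38.p6, each 5′ to 3′ on the gene's strand. Capitals mark TCACNCCAC, a letter form of the sterol regulatory element, and CCAAT, the letters NF-Y binds, the latter also as its reverse complement ATTGG. The windows are chr13:119690101-119690350 (plus strand) for Hmgcs1, chr8:64733579-64733828 (minus strand) for Msmo1, chr5:28071162-28071411 (plus strand) for Insig1 and chr15:82147019-82147268 (plus strand) for Srebf2.
Hmgcs1: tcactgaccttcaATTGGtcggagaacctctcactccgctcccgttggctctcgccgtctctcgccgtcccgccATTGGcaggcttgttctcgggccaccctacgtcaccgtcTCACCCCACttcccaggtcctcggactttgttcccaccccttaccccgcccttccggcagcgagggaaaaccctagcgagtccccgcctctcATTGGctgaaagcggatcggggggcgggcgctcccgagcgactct
Msmo1: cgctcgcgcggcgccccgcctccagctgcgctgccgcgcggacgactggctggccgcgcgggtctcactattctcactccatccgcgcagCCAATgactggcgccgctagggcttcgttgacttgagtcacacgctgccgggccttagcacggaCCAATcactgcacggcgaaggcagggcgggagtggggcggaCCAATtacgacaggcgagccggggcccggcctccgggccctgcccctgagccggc
Insig1: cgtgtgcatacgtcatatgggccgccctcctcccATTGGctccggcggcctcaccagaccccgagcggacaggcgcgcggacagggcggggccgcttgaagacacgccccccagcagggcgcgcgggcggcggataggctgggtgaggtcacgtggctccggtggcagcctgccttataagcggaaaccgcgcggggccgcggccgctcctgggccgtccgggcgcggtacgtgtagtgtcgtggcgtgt
Srebf2: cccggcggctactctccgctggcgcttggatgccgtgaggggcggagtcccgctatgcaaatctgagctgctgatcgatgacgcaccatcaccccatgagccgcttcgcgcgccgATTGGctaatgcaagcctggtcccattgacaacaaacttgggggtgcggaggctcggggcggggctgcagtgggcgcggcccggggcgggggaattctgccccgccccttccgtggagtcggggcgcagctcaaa
Windows of 300 bases, which add the 50 bases after the start, were given for 6 of the 8 genes, Sqle and Fdft1 having none in the table. On either strand CCAAT was in 6 of 6, against 37.4% of all 32851 windows, and GGGCGG, the core letters of an Sp1 site, was in 6 of 6, against 35.7%. TCACNCCAC was in 1 of 6, that of Hmgcs1, where TCACCCCAC begins 137 bases before the start, against 1.24% of all windows. In 15 windows of other sterol synthesis genes TCACNCCAC was in 0, CCAAT in 11 and GGGCGG in 11. Msmo1 held CCAAT at 160, 96 and 55 bases before its start. TCACNCCAC was the only form of the sterol regulatory element searched, so variants of it were not counted. These matches describe letters and are not shown to be binding sites.

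Bap1_WT and Bap1_KO held 1926 and 1760 cells with 77579465 and 64954113 UMIs, a median of 37223 and 33585 per cell. They shared 3 cell barcodes. Bap1 itself stood at 14.0 and 19.5 CPM (UMIs per 1000000 UMIs of the same cells) in keratin-rich cells, higher in Bap1_KO. Which exons are floxed is not given in the sources used here, so 3′ counts do not check the deletion, and each direction below is between libraries as labelled. Clustering without the pathway genes gave 7 keratin-rich clusters, numbered 0 to 6, with 1743 cells (91.2%) and 1591 cells (91.5%) of those kept. They differed in makeup between the libraries. Cluster 0 held 38.2% of the keratin-rich cells of Bap1_WT and 2.83% of those of Bap1_KO, while cluster 1 held 8.55% and 34.8%. Cluster 1 was led by Obp2a and Odam, with the stress genes Nupr1 and Gdf15 among its top 10. Cluster 2 carried 5 suprabasal markers (Krtdap, Sbsn, Ivl, Dmkn and Lor), and cluster 6 carried 6 cycling markers. Cluster 3 was led by the contractile genes Cnn1 and Acta2, and cluster 4 had the lowest depth, with a median of 19168 and 20710 UMIs per cell. Cluster 5 had 1 and 100 cells. Because clusters 3 and 6 lead with contractile and cycling rather than keratinocyte markers, values are given by cluster as well as for all 7. Outside these lay myeloid-like (36 and 20 cells), melanocyte-like (29 and 62) and Schwann-like cells (59 and 36), and cluster 7 (44 and 30). Cluster 7 carried 6 fibroblast markers (Col1a1, Col1a2, Col3a1, Pdgfra, Twist2 and Crabp1), and its leading genes mixed fibroblast and other genes. It was left unnamed because only melanocyte, Schwann and myeloid names were given outside the keratin-rich clusters.

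Summed over the 8 genes, the level in keratin-rich clusters of Bap1_WT with at least 10 cells ran from 316 to 665 CPM, while the pooled keratin-rich cells stood at 519 in that library and 529 in Bap1_KO. The sum was 665 CPM (650 to 680) in the suprabasal cluster 2, 648 (635 to 662) in the contractile cluster 3 and 648 (631 to 666) in the cycling cluster 6. These 3 did not differ beyond their intervals. Cluster 4 came next with 466 CPM (443 to 489), then cluster 0 with 411 (404 to 418), and cluster 1 was lowest with 316 (300 to 333). In Bap1_KO cluster 1 was again lowest, with 310 CPM (302 to 318), followed by cluster 5 with 374 (355 to 393) and cluster 0 with 472 (445 to 501). Clusters 2, 3 and 6 were again highest, at 680, 668 and 690 CPM, with overlapping intervals. Cluster 4, at 607 CPM (580 to 634), stood nearer to them than in the other library. Its median per cell went the other way, 408 CPM in Bap1_WT and 376 in Bap1_KO, with 75th percentiles of 608 and 805. Against the other keratin-rich cells of its own library, cluster 1 was 1.68-fold lower in Bap1_WT and 2.03-fold lower in Bap1_KO.

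Other cell types spanned a wider range. Schwann-like cells, the glia of peripheral nerves, had 803 CPM (743 to 867) in Bap1_WT and 868 (783 to 960) in Bap1_KO. That was 1.55-fold and 1.64-fold the keratin-rich level. Melanocyte-like cells had 767 CPM (696 to 844) and 918 (858 to 981), 1.48-fold and 1.73-fold the keratin-rich level. The intervals of these 2 cell types overlapped within each library. Both had low depth, a median of 10495 to 12363 UMIs per cell, and the melanocyte-like cluster also held keratin RNA, with Krt14 at 1557 CPM, whose part in its level was not tested. Myeloid-like cells were lowest, with 119 CPM (96.0 to 146) and 146 (109 to 191), 4.37-fold and 3.63-fold below keratin-rich cells. The part of free RNA from other cells in these low values was not tested. Cluster 7 was 1.18-fold and 1.13-fold below the keratin-rich level.

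**Figure D1:**
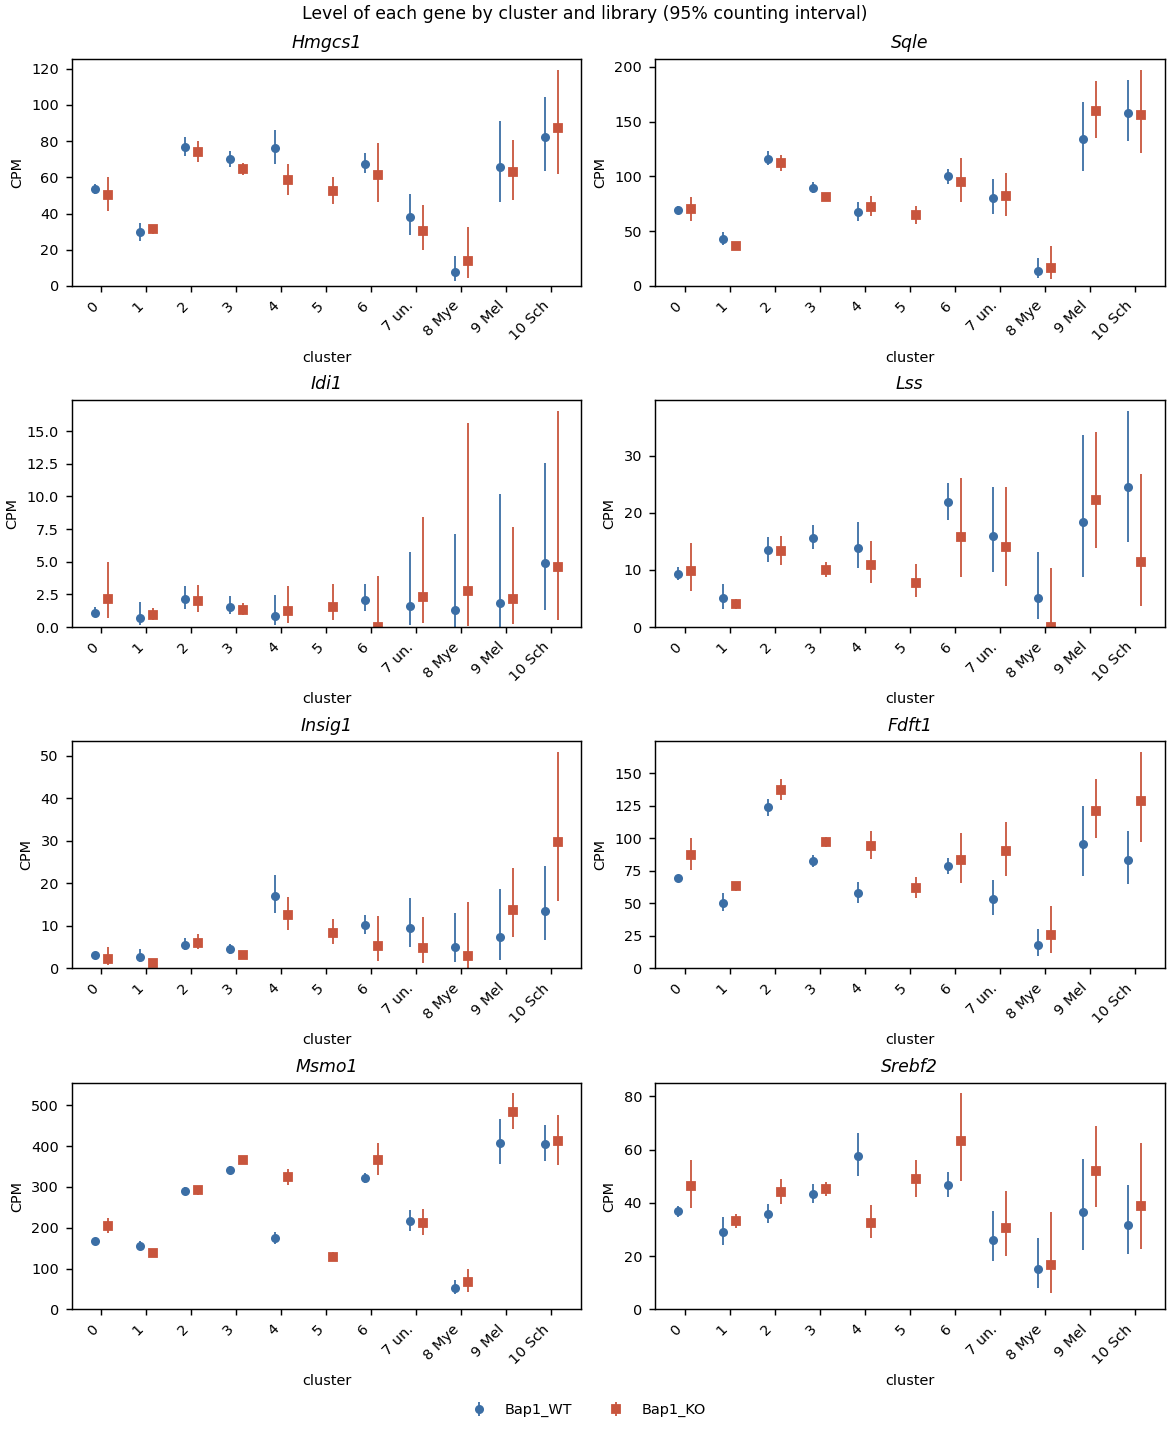
Level of each of the 8 genes in CPM (linear axes that differ between panels) in the 11 clusters, for Bap1_WT (blue circles) and Bap1_KO (red squares), with 95% counting intervals; clusters under 10 cells in a library are not drawn, and un., Mye, Mel and Sch stand for unnamed, myeloid-like, melanocyte-like and Schwann-like. Cluster 1 is low for most genes, the myeloid-like cluster 8 is lowest for Msmo1 (52.4 and 67.3 CPM), and Insig1 is high in cluster 4 and in Schwann-like cells.

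Srebf2 (GRCm38.p6, as for the genes after it; NCBI gene 20788, chr15:82147269-82205379) encodes SREBP2. In keratin-rich cells it gave 2929 UMIs in Bap1_WT and 2550 in Bap1_KO, or 39.6 CPM (38.2 to 41.1) and 41.1 (39.6 to 42.8). The intervals overlap, and the log2 ratio of Bap1_KO over Bap1_WT was 0.06 (−0.02 to 0.13). Between keratin-rich clusters of Bap1_WT it ran from 29.1 CPM in cluster 1 to 57.6 in cluster 4. Cluster 4 went the other way from the pooled cells, with 57.6 CPM (49.9 to 66.1) and 32.5 (26.7 to 39.3), 1.77-fold lower in Bap1_KO. The microRNA gene Mir33 lies within Srebf2.

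Insig1 (NCBI gene 231070, chr5:28071412-28078662) encodes an anchor that keeps SREBP2 in the endoplasmic reticulum and is itself a target of SREBP2. It was sparse, with 384 and 234 UMIs, 5.19 CPM (4.68 to 5.74) and 3.78 (3.31 to 4.29), 1.37-fold lower in Bap1_KO (log2 −0.46, −0.70 to −0.22). Its pattern across clusters was unlike that of the sum. Cluster 4 was highest among keratin-rich clusters, with 17.0 CPM (13.0 to 21.9) and 12.5 (8.94 to 16.9), and cluster 6 followed in Bap1_WT with 10.2 (8.15 to 12.5). Schwann-like cells gave 13.5 CPM (6.72 to 24.1) and 29.8 (15.8 to 50.9), from 11 and 13 UMIs. The suprabasal cluster 2, among the highest in the sum, had 5.57 and 6.02 CPM of Insig1. The gene model Gm35223 overlaps Insig1.

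Hmgcs1 (NCBI gene 208715, chr13:119690351-119708260) encodes the enzyme that forms HMG-CoA, the substrate of the rate-limiting step. It gave 61.5 CPM (59.7 to 63.3) and 53.7 (51.9 to 55.6) in keratin-rich cells, a log2 ratio of −0.20 (−0.26 to −0.13). By cluster the log2 ratio ran from −0.39 in cluster 4 to 0.08 in cluster 1, and only in clusters 3 and 4 did its interval lie below 0. Idi1 (NCBI gene 319554, chr13:8885606-8892396), which interconverts the 5-carbon isoprenoid units, was nearly absent at this depth, with 105 and 81 UMIs in all keratin-rich cells. Its levels of 1.42 CPM (1.16 to 1.72) and 1.31 (1.04 to 1.62) did not differ beyond counting error.

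Fdft1 (NCBI gene 14137, chr14:63145150-63181687) encodes squalene synthase, which commits isoprenoids to sterols. It gave 79.4 CPM (77.4 to 81.4) in Bap1_WT and 88.7 (86.4 to 91.1) in Bap1_KO, a log2 ratio of 0.16 (0.11 to 0.21). It was higher in Bap1_KO in each of the 6 keratin-rich clusters with at least 10 cells in both, by log2 values of 0.08 in cluster 6, where the interval included 0, to 0.70 in cluster 4. In cluster 2 it was 124 and 137 CPM, the highest of the keratin-rich clusters in both libraries. Fdft1 meets Ctsb, an abundant lysosomal protease gene, at its 3′ end, and how reads on the overlap were assigned is not given in the sources used here.

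Sqle (NCBI gene 20775, chr15:59315092-59331193) encodes squalene epoxidase, the first oxygen-using step of the pathway. It gave 82.4 CPM (80.3 to 84.5) and 69.6 (67.5 to 71.7), a log2 ratio of −0.24 (−0.30 to −0.19). The cluster values lay nearer to 0 than the pooled one, from −0.22 in cluster 1 to 0.09 in cluster 4. Melanocyte-like cells had 134 and 159 CPM and Schwann-like cells 158 and 156, the 2 highest levels of Sqle in each library.

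Lss (NCBI gene 16987, chr10:76531565-76557139) encodes the cyclase that closes squalene epoxide into lanosterol. It gave 12.6 CPM (11.8 to 13.4) and 8.55 (7.84 to 9.31), 1.47-fold lower in Bap1_KO (log2 −0.56, −0.71 to −0.40), the widest pooled gap of the 8. Cluster 3 showed a gap of 15.6 against 9.97 CPM, 1.57-fold, while cluster 2 did not, with 13.4 and 13.3. The long noncoding gene 4930483K19Rik overlaps Lss.

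Msmo1 (NCBI gene 66234, chr8:64718123-64733578) encodes the oxidase that removes methyl groups from the sterol ring. It gave 237 CPM (234 to 241) and 263 (259 to 267), a log2 ratio of 0.15 (0.12 to 0.18). By cluster it differed in direction, with 156 CPM (145 to 168) and 139 (134 to 145) in cluster 1 and 168 and 205 in cluster 0. Cluster 4 had the widest gap, 174 CPM (161 to 189) against 325 (305 to 345), 1.86-fold higher in Bap1_KO. Msmo1 supplied 45.7% and 49.6% of all UMIs of the 8 genes, so it sets much of the sum.

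Pooled over the 7 keratin-rich clusters, the sum was 519 CPM (514 to 524) and 529 (524 to 535), a log2 ratio of 0.03 (0.01 to 0.05). Without Msmo1 the sum of the other 7 was 282 and 267 CPM, lower in Bap1_KO by log2 −0.08 (−0.11 to −0.05). At a size limit of 1.5-fold, 0 of 8 genes were higher and 0 of 8 lower, where 7.71% of the 16746 genes with at least 20 UMIs were higher and 17.5% lower. The median log2 ratio of the 8 was −0.16, against −0.02 for all those genes. The pooled values join clusters of unequal makeup. Leaving out cluster 1 moved the log2 ratio of the sum to 0.24 and the median of the 8 genes to 0.01. In cluster 4, 2 of 7 genes with at least 20 UMIs were higher (Msmo1 and Fdft1), where 8.3% of all its genes were higher, and 1 was lower (Srebf2), where 18.4% were lower. In cluster 3, 0 of 8 were higher, where 6.86% of its genes were, and 1 was lower (Lss), where 15% were.

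**Figure D2:**
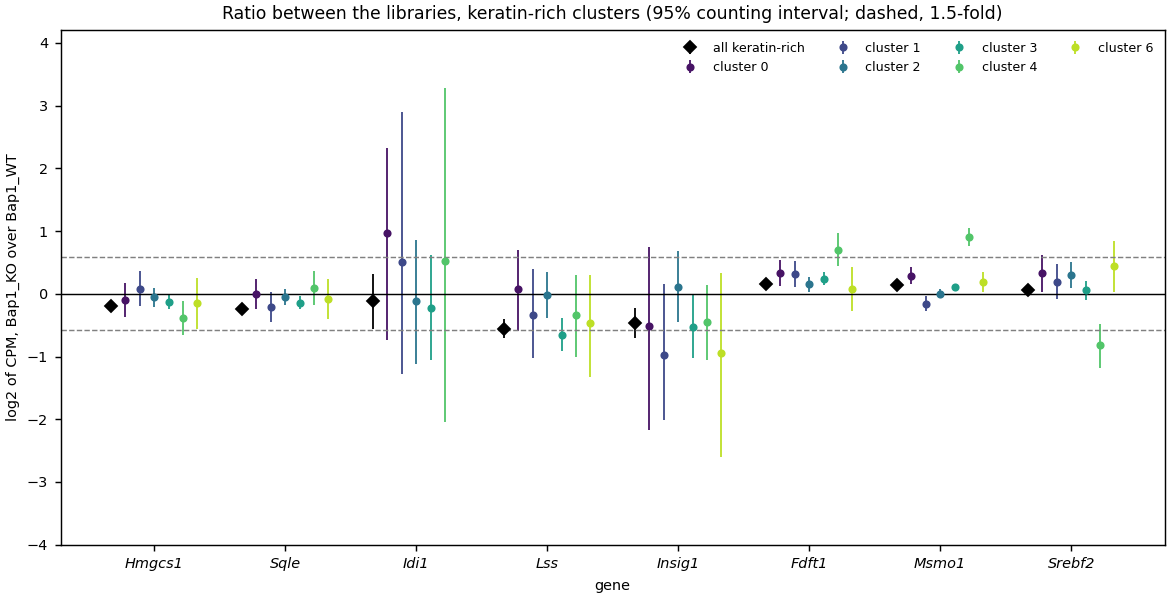
Log2 ratio of CPM, Bap1_KO over Bap1_WT, for each gene in all keratin-rich cells (black diamonds) and in clusters 0 to 4 and 6 (coloured circles), with 95% counting intervals; ratios against 0 UMIs are not drawn, and dashed lines mark 1.5-fold. Fdft1 lies above 0 in each cluster drawn, while Msmo1 and Srebf2 part in opposite directions in cluster 4 (0.90 and −0.82).

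The rest of the pathway was read from lists of related genes. Among 14 other sterol synthesis genes 0 were higher and 3 were lower at 1.5-fold, where 7.71% and 17.5% of all genes were, with a median of −0.28. Pmvk, the kinase of phosphomevalonate, gave 56.3 and 33.7 CPM (log2 −0.74). Mvd, the decarboxylase after it, gave 1861 and 991 UMIs (−0.65), and Hsd17b7, a later ketosteroid reductase, 40.3 and 26.6 CPM (−0.60). These 3 did not stay past 1.5-fold without cluster 1, where 0 of the 14 did. Of 9 genes of SREBP control, 0 were higher and 0 lower, with a median of 0.10. The largest gap was in Rnf145, a ubiquitin ligase of this system, with 41.6 and 59.3 CPM (log2 0.51).

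Uptake and transfer genes were mixed, 1 of 13 higher and 4 lower, against 7.71% and 17.5% of all genes, with a median of −0.01. The higher one, Vldlr, a lipoprotein receptor, gave 5.58 and 8.68 CPM (log2 0.64). It was higher in 4 of 6 clusters and under the limit with equal weight for each cell (0.55) or each cluster (0.19). The lower ones were Lipa (−0.99), the lysosomal lipase that frees cholesterol from lipoprotein esters, Stard4 (−0.83), a sterol carrier, and the transfer proteins Gramd1b (−1.17, 35 and 13 UMIs) and Gramd1c (−1.20). Lipa was 10.5 CPM and 5.26 in keratin-rich cells and lower in Bap1_KO in 6 of 6 clusters. Myeloid-like cells held Lipa at 47.3 and 47.7 CPM, and the part of free RNA in its keratin-rich level was not tested.

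Among 9 efflux and storage genes 2 were higher and 3 lower, against 7.71% and 17.5% of all genes, with a median of −0.14. Without cluster 1, 1 was higher, Arl4c falling under the limit at 0.49. Abcg1, a cholesterol exporter and a target of the sterol-sensing receptor LXR, gave 521 and 1151 UMIs, 7.04 CPM and 18.6, 2.64-fold higher in Bap1_KO (log2 1.40, 1.25 to 1.55). It was higher in 6 of 6 clusters, by 0.51 in cluster 2 to 1.45 in cluster 4, though cluster 6 rested on 12 and 3 UMIs. Arl4c (0.80) was higher in 5 of 6, and Abca1, another exporter, lay just under the limit at 11.0 and 16.5 CPM. Ch25h (−1.42) and Nr1h3 (−0.96), the gene of LXR alpha, were lower. Cyp27a1, a sterol hydroxylase, had 14 and 7 UMIs and a log2 ratio of −0.74 (−2.29 to 0.66), so that its interval included 0, and the ratio turned to 0.18 with equal weight for each cell and 0.70 with equal weight for each cluster. Ch25h, which makes 25-hydroxycholesterol, gave 3.96 and 1.48 CPM pooled but 2.83 and 5.90 in the suprabasal cluster 2, the other direction.

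Fatty acid synthesis genes had 0 of 15 higher and 2 lower, Elovl6 (−0.95) and Fads1 (−0.90), against 7.71% and 17.5% of all genes, with a median of −0.03. Barrier lipid genes had 0 of 7 higher and 4 lower against the same shares, with a median of −0.90. The 4 lower became 1 after thinning each cell to 8000 UMIs and 2 without cluster 1. The 4 were Aloxe3 (−1.63, 59 and 16 UMIs), Cers3 (−1.26), a ceramide synthase of the barrier, Abca12 (−1.05, 47 and 19 UMIs) and Elovl4 (−0.90). Cers3 gave 10.6 and 4.42 CPM pooled and 29.7 and 18.7 in cluster 2, while Abca12 and Elovl4 were each higher in Bap1_KO in 3 of 6 clusters. Of 15 genes of the G2 and M phases, 15 were lower, where 17.5% of all genes were, with a median of −2.03. Cycling cluster 6 held 149 and 16 cells. Within cluster 6 the median was 0.30, the other direction, and their summed level was 3620 and 5092 CPM. In clusters 0, 1, 2 and 3, where these genes were sparse, the median was −0.78, −0.73, −1.38 and −0.43, and in cluster 4 it was −0.03. Of 12 stress response genes 4 were higher and 1 lower, against 7.71% and 17.5% of all genes, with a median of 0.36. That median was 0.01, −0.02 and 0.02 in clusters 0, 1 and 2, and 0.32, 0.86 and 0.40 in clusters 3, 4 and 6. The summed level of the 12 was nonetheless 3152 and 5762 CPM in cluster 1, higher in Bap1_KO. It was 1941 and 1804 in cluster 0 and 1732 and 1482 in cluster 2, the other direction. Leaving out the cycling cluster 6 gave a log2 ratio of 0.07 for the sum of the 8 sterol genes.

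**Figure D3:**
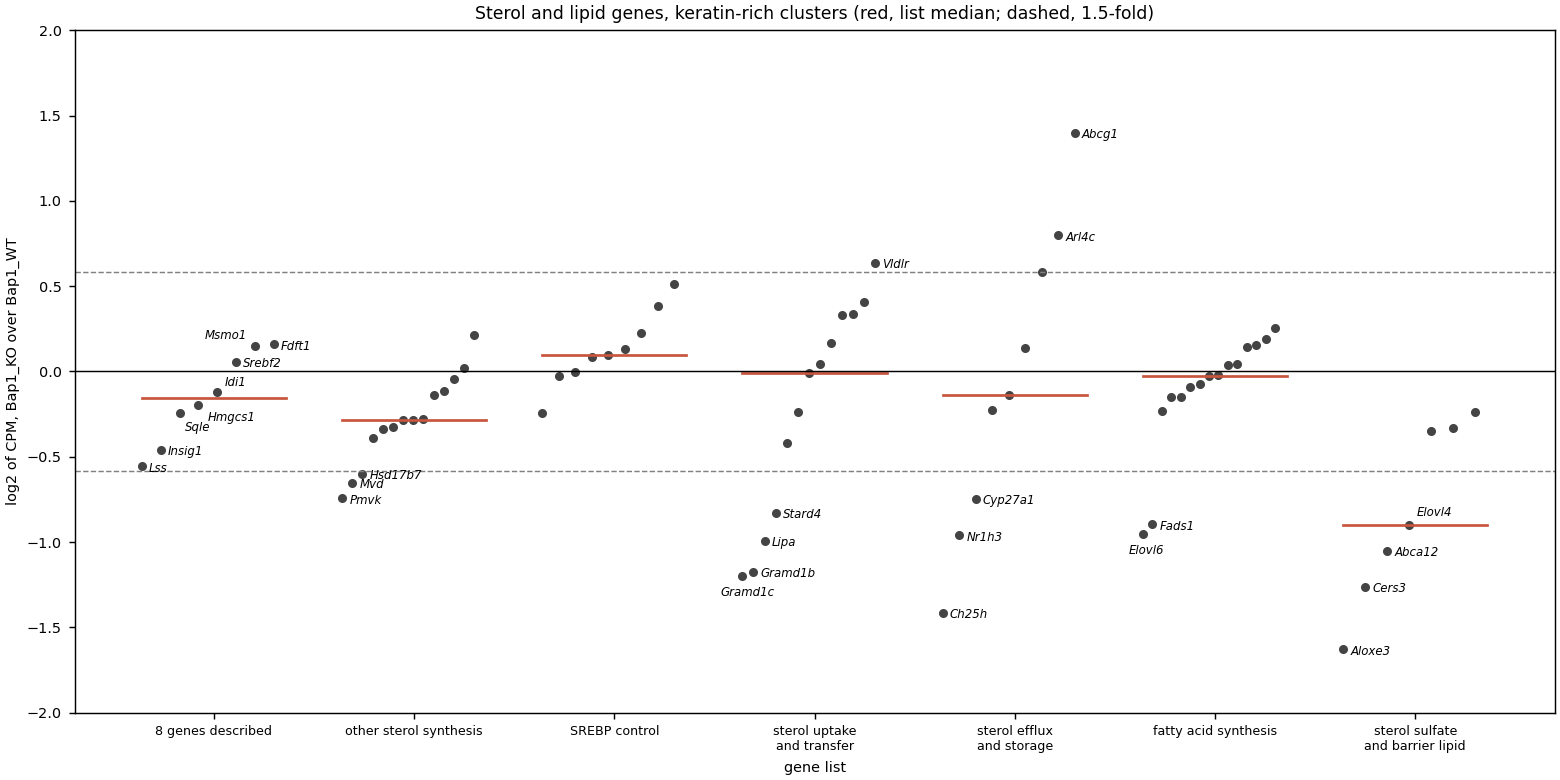
Log2 ratio of CPM, Bap1_KO over Bap1_WT, in keratin-rich cells, for each gene with at least 20 UMIs in 7 lists, sorted within each list; red bars are list medians and dashed lines mark 1.5-fold, with the 8 genes described and those past the lines named. The sterol synthesis genes sit near or below 0, Abcg1 is highest at 1.40, and the barrier lipid list has the lowest median, −0.90.

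Single cells varied widely. The sum of the 8 genes per keratin-rich cell had a median of 432 CPM in Bap1_WT, with a 5th percentile of 111 and a 95th of 1296. In Bap1_KO the median was 385 CPM, with 80.3 and 1453, a wider spread at both ends. After thinning each cell to 8000 UMIs, so that depth was equal, the variance of the sum was 3.14 and 3.79 times its mean, where Poisson counting alone gives a variance equal to the mean. Msmo1 was then seen in 72.1% (69.9 to 74.2) and 69.1% (66.8 to 71.4) of keratin-rich cells, against 95.2% and 92.5% unthinned. In myeloid-like cells, whose median depth before thinning was 19444 and 16120 UMIs against 39673 and 35600, it was seen in 50% (32.9 to 67.1) and 40% (19.1 to 63.9). At equal depth Insig1 was seen in 5.11% (4.12 to 6.25) and 2.89% (2.12 to 3.84) of keratin-rich cells. Among myeloid-like cells it was seen in 1 of 36 (0.07 to 14.5%) and 1 of 20 (0.13 to 24.9%), too few to set these shares apart from background.

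**Figure D4:**
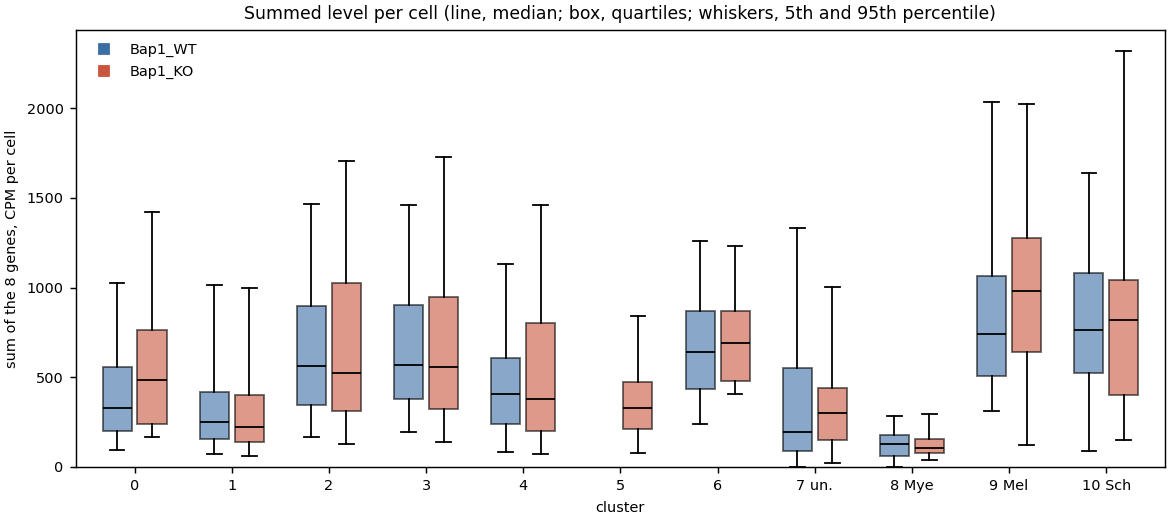
Sum of the 8 genes per cell in CPM for each cluster and library (blue, Bap1_WT; red, Bap1_KO); the line is the median over cells, the box the quartiles and the whiskers the 5th and 95th percentiles. Cluster 1 has low medians (247 and 222), and Schwann-like and melanocyte-like cells have high ones (764 and 819, 740 and 982).

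Some of the 8 genes varied together from cell to cell. Each gene's thinned log level was correlated over keratin-rich cells with the summed level of the other 7, as a description over 1743 and 1591 cells that share libraries. Pearson r was 0.37 and 0.39 for Msmo1, 0.31 and 0.35 for Sqle, 0.31 and 0.34 for Fdft1 and 0.27 and 0.25 for Hmgcs1. These are the early, middle and late steps of the pathway. Srebf2 stood lower at 0.14 and 0.11. Lss (0.13 and 0.17), Insig1 (0.14 and 0.03) and Idi1 (0.05 and 0.01) had a mean under 0.2 UMI per thinned cell and were too sparse to read. For 5087 other genes with a mean of at least 0.2 UMI per thinned cell in both libraries, the median r was −0.02 and −0.02 and the 99th percentile 0.15 and 0.21. Depth before thinning had r of −0.04 and 0.03 with the sum over all keratin-rich cells. Within clusters it ran from −0.21 in cluster 6 of Bap1_WT to 0.30 in cluster 4 of Bap1_KO, and the part of depth in the r values there was not tested. Of the 28 pairs among the 8 genes, 28 and 26 had a positive r, with a median of 0.07 and 0.06. Within clusters fewer did, down to 14 of 28 in clusters 4 and 5 and 19 of 28 in cluster 3 of Bap1_KO.

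The 10 other genes with the highest r were Cyp51, Acat2, Nsdhl, Krt5, Sc5d, Tuba4a, Ccn1, Fgfbp1, Tuba1c and Tubb4b. Cyp51, lanosterol demethylase, led with 0.37 and 0.43, and held between 0.26 and 0.49 within each cluster examined. Acat2 (0.28 and 0.27), Nsdhl (0.26 and 0.29) and Sc5d (0.25 and 0.29) are also sterol synthesis enzymes. The remaining 6 are a basal keratin, Krt5 (0.25 and 0.30), tubulins and secreted proteins. Within clusters the r of Krt5 ran from 0.04 in cluster 5 of Bap1_KO and 0.05 in cluster 1 of Bap1_WT to 0.33 in cluster 4 of Bap1_KO. Other sterol synthesis genes had a median r of 0.23 and 0.24 and SREBP control genes 0.01 and 0.00. Fatty acid synthesis genes lay between, at 0.11 and 0.06, where the 95th percentile of the 5087 other genes was 0.08 and 0.10.

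**Figure D5:**
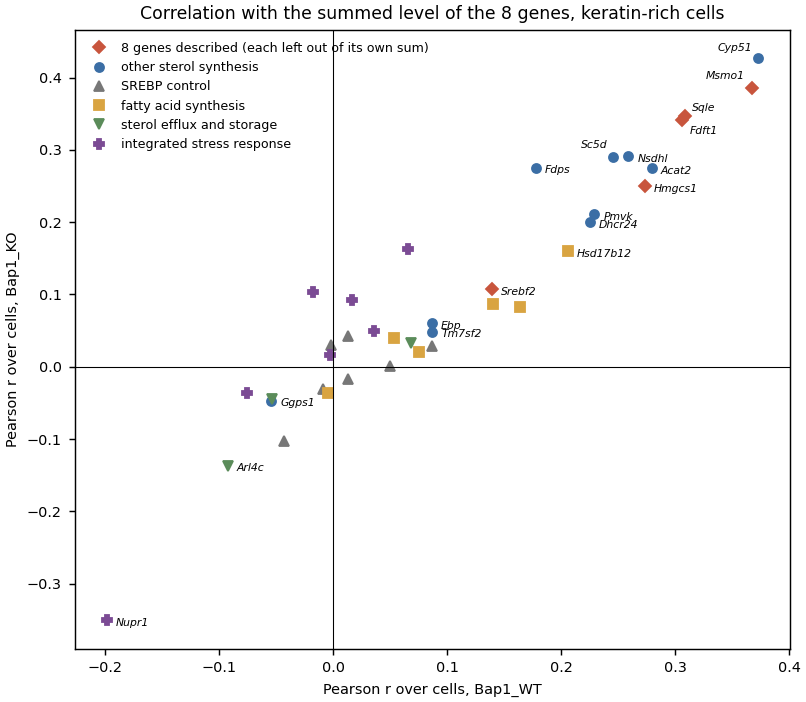
Pearson r over keratin-rich cells between each gene and the summed thinned level of the 8 genes, Bap1_WT on the x axis and Bap1_KO on the y axis, for list genes above the level minimum; a member was left out of its own sum. Msmo1, Sqle, Fdft1 and Hmgcs1 sit with Cyp51 and other sterol enzymes at the upper right, while Nupr1 lies at the lower left.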

How the data were processed

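The authors deposited 1 table of UMI counts per library, genes by cells. The submitters' processing notes name mm10, Cell Ranger 2.1 and Seurat 2.0 without roles. How barcodes were called and how overlapping, intronic or antisense reads were counted is not stated in the labels. The members and gene lists were chosen with earlier results of these data known. Of 36528 identifiers 31049 matched a RefSeq symbol (GRCm38.p6). Rows without a symbol, 2.68% and 2.65% of UMIs, stayed in the totals.

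Cells with under 500 genes or over 10% mitochondrial UMIs (13 and 16) and Scrublet doublets (2 and 6) were removed. That is 0.104% and 0.341% of cells, at an expected rate of 0.02, so doublets may remain. Both libraries were clustered jointly without integration (totals scaled to 10000, log, 2000 variable genes less 30 list genes, 30 components, 15 neighbours, Leiden resolution 0.5). A name other than keratin-rich needed 3 markers at 5-fold. Cell types therefore rest on rebuilt names.

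UMIs were summed per cluster and library. Levels have exact Poisson, ratios conditional exact and shares Clopper-Pearson intervals at 95%. Without replicates there is no test. Named genes are the 8 members, genes of the sterol and lipid lists at 1.5-fold with at least 20 UMIs (up to 8 per direction), and the 10 with the highest correlation. Those of the G2 and M phase and stress response lists were given as counts. Rnf145, Abca1, Asns and Nupr1 were named after their values were seen. The ratio code was tested on simulated counts. Alternatives numbered 14, of which 3 were chosen after seeing the data. The LDL receptor was not analysed here. Python 3.11.15, scanpy 1.11.5, numpy 2.4.6, scipy 1.17.1 and pandas 2.3.3 were used.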

Additional observations from a re-analysis of the deposited data

How the results depend on the processing

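The log2 ratio of the summed level, 0.03, became −0.012 with equal weight for each cell, 0.12 with equal weight for each cluster, −0.019 after thinning to 8000 UMIs, 0.24 without cluster 1 and 0.070 without cluster 6. The median of the 8 genes, −0.16, became −0.26 with equal cell weight, −0.30 after thinning and 0.0052 without cluster 1. Members at least 1.5-fold lower numbered 0, but 2 with equal cell weight and 1 after thinning. The 3 lower genes of other sterol synthesis became 0 with equal cluster weight and 0 without cluster 1. The 2 lower fatty acid genes became 1 with equal cluster weight and 1 after thinning. The 1 higher uptake gene became 0 with equal cell weight and 0 with equal cluster weight. Efflux and storage had 1 higher gene in place of 2 without cluster 1, and 1 lower in place of 3 at a minimum of 100 UMIs. The 4 lower barrier lipid genes became 1 after thinning, 2 at 100 UMIs and 2 without cluster 1. Cyp27a1 reversed to 0.18 with equal cell weight and 0.70 with equal cluster weight. The cause of these shifts was not tested.

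The melanocyte-like level over keratin-rich cells was a log2 ratio of 0.56 in the library labelled wild type. It was 0.79 with no cell filter, 0.83 at a common UMI minimum, 0.79 at resolution 0.3, 0.79 at resolution 1, 0.79 with pathway genes kept and 0.71 after thinning. In the library labelled knockout 0.79 became 1.02, 1.16, 1.05, 1.04 and 1.05 under the same first 5 settings, 0.93 with equal cell weight and 0.97 after thinning. The myeloid-like ratio of −2.13 in the library labelled wild type became −1.82 after thinning. Schwann-like ratios stayed between 0.59 and 0.75 in 7 alternatives each. Among single genes, Abcg1 stayed between 0.97 and 1.42 and Lipa between −1.45 and −0.98 in 14 alternatives. No paired analysis was possible because each genotype has 1 library. Intervals leave out variation between cultures and animals, which cannot be told apart from genotype here.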

Other observations

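Nupr1, a stress-induced chromatin protein gene and among the top 10 genes of cluster 1, was chosen after its values were seen. Its thinned log level had a Pearson r of −0.20 and −0.35 with the summed level of the 8 sterol genes over 1743 and 1591 keratin-rich cells of the libraries labelled wild type and knockout. Within cluster 1 r was −0.18 and −0.21, within cluster 3 −0.17 and −0.24, and within cluster 4 −0.17 and −0.32. In the suprabasal cluster 2 it was −0.03 and −0.13, and in the cycling cluster 6 of the library labelled wild type 0.04. Nupr1 itself stood at 1046 CPM and 2442 CPM in keratin-rich cells. The 7 stress response genes above the level minimum, Nupr1 included, had a median r of −0.002 and 0.05. Nupr1 was the lowest of them in both libraries, and Asns the highest at 0.07 and 0.16. Thinned levels of different genes in 1 cell share that cell's fixed total, and the part of this in r was not tested.

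Among genes outside the lists, Bax, a cell death gene, had r of −0.26 and −0.26, and Mgst1, a glutathione transferase of membranes, −0.24 and −0.28. Both were also picked after their values were seen.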
